A study of Mus musculus with 24 samples.

Results

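The 42 genes described here are those of the mouse proteasome and its dedicated regulators, out of 18193 genes on the array with a gene symbol of their own. They were chosen by name only. A gene was taken when its symbol starts with Psma, Psmb, Psmc, Psmd, Psme or Psmf followed by a number, and the 3 immunoproteasome subunits Psmb8, Psmb9 and Psmb10 were left out. Each gene is read on its brightest probe set, the one with the highest mean over the 24 arrays. The genes comprise 8 subunits of the 20S alpha ring, 8 of the 20S beta ring, 6 ATPases of the 19S cap, 14 19S subunits or assembly partners without ATPase activity, 3 activator genes (Psme1, Psme3 and Psme4) and the inhibitor Psmf1. The name rule also took in 2 genes that encode no subunit: Psmc3ip, a partner of meiotic recombinases, and Psme3ip1, which binds the activator PSME3. The activator Psme2 shares its only probe set with another symbol and was not analysed here.

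The 26S proteasome degrades proteins tagged with ubiquitin. Its 20S core is a barrel in which outer alpha rings form the gate and inner beta rings hold the catalytic sites, and the 19S cap binds the tagged protein, removes the ubiquitin, unfolds the chain with an ATPase ring and feeds it into the core. The transcription factor NFE2L1 is known to raise most subunit genes together when proteasome activity is short. Blood stem cells are known for a low rate of protein synthesis and a strict control of protein quality.

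The RNA came from 4 blood progenitor populations of mice, measured on 24 Affymetrix one-colour arrays with 3 arrays for each population and genotype. Wild-type (WT) cells came from B-p-GFP-C mice, in which GFP is driven by Ikaros regulatory sequence and whose background is C57BL/6 x C3H. Ikaros-deficient (KO) cells carried the same reporter on the Ikaros null background of the I74 line (C57BL/6 x 129SV), so that genotype and strain background cannot be told apart. Ikaros is a DNA-binding regulator needed for lymphoid development, and Ikzf1 is its gene. Sorting was done within LSK (lineage-negative cells with Sca-1 and Kit) or LK (lineage-negative cells with Kit) by their GFP. The labels name LSK GFPneg-lo cells HSC (stem cells), LSK GFPhi cells LMPP (lymphoid-primed progenitors), LK GFPneg cells MEP (progenitors of red cells and megakaryocytes) and LK GFPhi cells GMP (those of granulocytes and monocytes), and these short names are used here. Arrays of a group are titled as biological replicates, and nothing says whether each holds 1 animal or a pool, so p-values measure only the spread between these samples.

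All values are log2 signal, and a difference is given with its moderated standard error (SE) from limma. A gene was called changed where its p-value, adjusted by Benjamini and Hochberg over all 18193 genes, was below 0.05. Levels of different genes are not compared, since probe sets differ in brightness. Between arrays of the same group, r over all genes was 0.979 to 0.996, a description since genes are not replicates. The targeted gene Ikzf1 was lower in KO cells by 3.63 in HSC, 4.15 in LMPP, 3.45 in MEP and 4.34 in GMP, so the difference had the labelled sign in every population. Defining genes of GMP, MEP and HSC followed the labels in WT cells. All 6 granulocyte and monocyte progenitor genes measured were higher in GMP than in MEP, all 5 erythroid and megakaryocyte genes were lower there, and all 5 stem cell genes were lower in MEP than in HSC. Early lymphoid genes did not set LMPP apart from GMP. Their median, each gene centred on its mean over all arrays, averaged 1.95 in WT LMPP and 1.89 in WT GMP. It averaged -0.30 in WT HSC and -2.07 in WT MEP. The arrays numbered 2 stood apart for these genes: the median of the 42, after each gene was centred on its mean over all arrays, was lowest on the array numbered 2 in 6 of 8 groups. Results are therefore also given without all arrays numbered 2, an alternative chosen after the data were seen. In bulk samples such as these, fewer cells of a type and less RNA per cell cannot be told apart.

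Across the 8 groups, most proteasome genes followed a common course with its peak in MEP. The highest group mean was in MEP for 34 of the 42 genes, 22 of them in KO MEP and 12 in WT MEP. It was in KO GMP for 6 and in WT LMPP for 2, Psme1 among the latter. How many of all genes had their highest mean in MEP was not counted, so these counts have no background. The lowest group mean was in WT HSC for 21 genes and in WT LMPP for 11. The distance from the lowest to the highest group mean had a median of 0.84 over the 42 genes, beside 0.47 over all genes. Over the 861 pairs of these genes, the correlation of the 8 group means had a median of 0.74 and that of the 24 arrays 0.57. Within groups it was 0.36, so that part of the shared course was also shared between arrays of the same group. These correlations are a description: the points share arrays and depth of signal, and pairs of other genes were not set beside them.

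**Figure D1:**
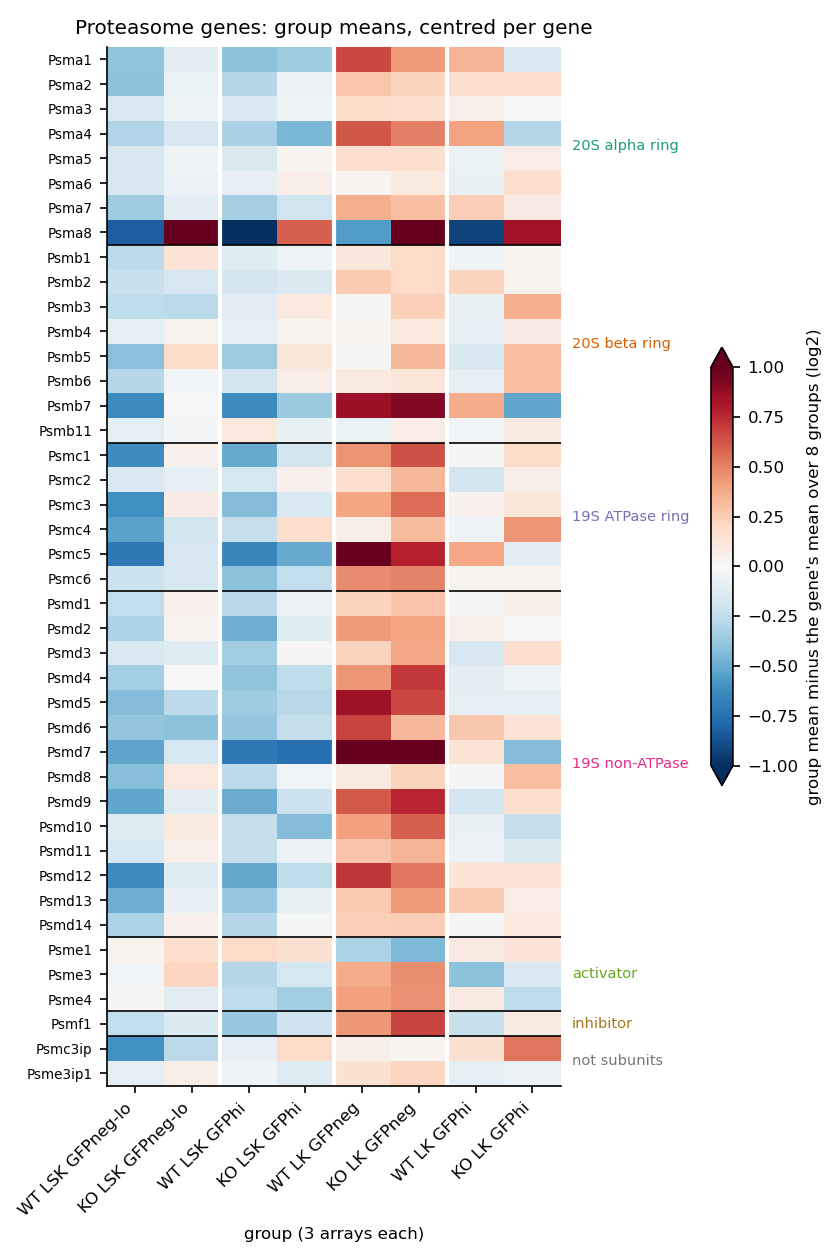
Mean log2 signal of each of the 42 genes in the 8 groups (3 arrays each), centred on the gene's mean over the groups and ordered by role in the complex; the colour scale ends at 1 below and 1 above the mean. The MEP columns hold the highest mean of 34 genes, while Psma8 follows genotype and Psme1 has its lowest mean in KO MEP.

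On single arrays, the centred median of the 42 genes was -0.27, -0.26 and -0.35 in WT HSC, -0.35, -0.46 and -0.07 in WT LMPP, 0.31, 0.17 and 0.42 in WT MEP, and 0.08, -0.27 and 0.21 in WT GMP. The WT MEP arrays lay above all WT HSC and WT LMPP arrays, and WT GMP overlapped with the groups on both sides. In KO cells it was 0.03, -0.14 and 0.03 in HSC, -0.11, -0.06 and -0.10 in LMPP, 0.45, 0.05 and 0.52 in MEP, and 0.08, 0.01 and 0.20 in GMP. The KO HSC arrays lay above all WT HSC arrays, whereas WT and KO overlapped in the other populations. In MEP and GMP of either genotype, the array numbered 2 had the lowest value of its group. The same 4 arrays were also the lowest of their groups for 11 proliferation genes, and whether cycling had a part in the proteasome values was not tested.

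**Figure D2:**
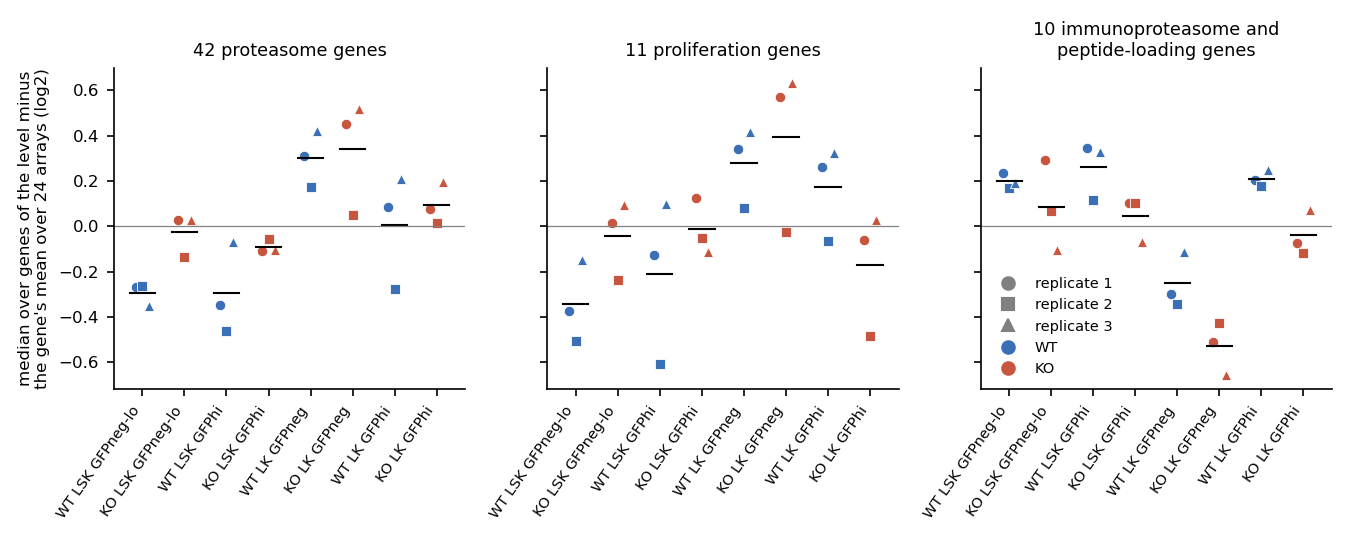
Centred median log2 signal per array for the 42 proteasome genes, 11 proliferation genes and 10 genes of the immunoproteasome and peptide loading, with a marker shape for each replicate number in the 8 groups. The 42 genes reach 0.52 in KO MEP, and the immunoproteasome list goes the other way, down to -0.66 on the same array.

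How far the proteasome genes differ between stem cells and the MEP fraction was asked in WT cells, in which 23 of the 42 genes rose in MEP and 0 fell. At an unadjusted p below 0.05, 31 were higher and 0 lower. The share of all genes at that unadjusted threshold was not counted in this or any other comparison. The background for this comparison was high: 13% of all genes tested were called higher and 14.1% lower, 27.1% in either direction. The share among the proteasome genes was 54.8%, and their median difference was 0.55, a 1.46-fold higher signal, beside 0.03 over all genes. The sign was positive for 41 of the 42, Psme1 being the exception. Without the 2 genes that encode no subunit, 22 of 40 rose. The count was 15 without WT HSC replicate 2, 16 to 21 without any other single array, and 26 without all arrays numbered 2. Samples of this comparison pair by replicate number (lowest r = 0.171). With replicate number as a block more genes were called, all of them higher in MEP. They included Psma6 (adjusted p = 0.0411), Psmb1 (0.0374), Psmd1 (0.0253), Psmd3 (0.0216) and Psmd8 (0.0225), besides those given below. The block was a replicate effect common to all 8 groups, over which the numbers did not pair every array (lowest r = -0.0891). Pairing within the compared groups does not cover that, so block calls here and below are an alternative only.

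In the 20S alpha ring, 5 of 8 genes rose: Psma2 (0.69), Psma3 (0.34), Psma4 (0.92), Psma5 (0.32) and Psma7 (0.72). Psma4 read 10.70, 10.76 and 10.41 in WT HSC and 11.44, 11.43 and 11.76 in WT MEP. The MEP arrays lay above all HSC arrays by more than the range within either group, and the difference was 0.92 (SE 0.20, adjusted p = 0.00133). Psma1 had a larger difference of 1.07 that was not called (SE 0.44, adjusted p = 0.0843). Its arrays read 11.25, 10.24 and 11.01 in HSC and 11.93, 11.57 and 12.20 in MEP, so the groups did not overlap but the array numbered 2 was low in both. With replicate number as a block, Psma1 was called (adjusted p = 8.57e-04).

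In the beta ring, 1 of 8 genes passed the test. Psmb2, a non-catalytic beta subunit, rose by 0.49 (SE 0.15, adjusted p = 0.0168), from 9.66, 9.61 and 9.67 in HSC to 10.30, 9.94 and 10.18 in MEP. The 3 catalytic subunits had positive differences that did not pass. Psmb5, which carries the chymotrypsin-like site, read 11.10, 11.13 and 10.99 in HSC and 11.32, 11.48 and 11.73 in MEP, a difference of 0.43 (SE 0.18, adjusted p = 0.0886). Psmb6, with the caspase-like site, read 11.16, 11.39 and 11.09 against 11.57, 11.66 and 11.55, a difference of 0.38 (SE 0.15, adjusted p = 0.0704). For both genes the arrays did not overlap. Psmb7, with the trypsin-like site, read 10.25, 9.05 and 10.07 against 11.29, 10.53 and 12.03. Its difference of 1.49 was among the largest of the 42, and so was its spread (SE 0.55, adjusted p = 0.0505). With replicate number as a block all 3 were called, with adjusted p = 0.0452 for Psmb5, 0.0337 for Psmb6 and 5.58e-04 for Psmb7. Psmb11, the beta subunit of the thymus-specific proteasome, read 5.62, 5.53 and 5.35 against 5.61, 5.56 and 5.38, with a difference of 0.02 (SE 0.09).

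Whether parts of the complex differ was not tested. The 19S cap held most of the rises. Of its 6 ATPases, which form the ring that unfolds the protein, 5 rose: Psmc1 (1.08), Psmc3 (1.002), Psmc4 (0.60), Psmc5 (1.70) and Psmc6 (0.69). Psmc5 read 9.38, 8.33 and 9.19 in HSC and 10.75, 10.03 and 11.23 in MEP. The groups did not overlap, although the array numbered 2 was lowest in each (SE 0.56, adjusted p = 0.0290). Psmc2 was the ATPase that did not pass (difference 0.31, SE 0.12, adjusted p = 0.0518). Its arrays read 12.51, 12.67 and 12.79 in HSC and 12.95, 12.99 and 12.97 in MEP, with no overlap, and it was called with replicate number as a block (adjusted p = 0.0150).

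Among the 14 cap genes without ATPase activity, 10 rose and all 14 differences were positive. Psmd9, a chaperone that helps to assemble the ATPase ring, had the smallest adjusted p of the 42. It read 7.92, 8.39 and 8.21 in HSC and 9.13, 9.31 and 9.47 in MEP, a difference of 1.13 or 2.19-fold (SE 0.17, adjusted p = 3.09e-05). Psmd5, another assembly chaperone of the cap base, read 8.61, 8.83 and 8.81 against 9.95, 9.80 and 10.32, a difference of 1.28 (SE 0.23, adjusted p = 2.20e-04). For both chaperones every MEP array exceeded every HSC array. Psmd10, the third chaperone of this kind, had a difference of 0.54 that was not called (adjusted p = 0.226).

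Psmd4, the ubiquitin receptor of the cap, read 10.39, 10.77 and 10.14 in HSC and 11.15, 11.22 and 11.27 in MEP, a difference of 0.78 (SE 0.16, adjusted p = 6.93e-04). Psmd14, the deubiquitinase that cuts the chain off the substrate, rose by 0.55 (SE 0.14, adjusted p = 0.00450). Psmd7, its structural partner, had the largest difference of all 42 at 1.74 or 3.34-fold (SE 0.39, adjusted p = 0.00210). It read 8.12, 8.15 and 8.07 in HSC and 9.53, 9.94 and 10.08 in MEP, so the HSC arrays were close together and more than 1 unit below the MEP arrays. Of the lid scaffold genes, Psmd12 rose by 1.35, Psmd6 by 1.06, Psmd13 by 0.75 and Psmd11 by 0.46, and Psmd2, a scaffold of the base, rose by 0.74. Psmd13 read 9.27, 9.56 and 9.61 in HSC and 10.02, 10.15 and 10.53 in MEP (SE 0.16, adjusted p = 9.58e-04). With the mean of all probe sets of a gene in place of the brightest, its difference was 0.17 and it was not called (adjusted p = 0.290).

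The regulators split. Psmf1, an inhibitor of the free 20S core, read 8.48, 8.31 and 8.51 in HSC and 9.02, 9.14 and 9.19 in MEP, a difference of 0.68 (SE 0.15, adjusted p = 0.00143) with no overlap. None of the 3 activators passed. Psme1, part of the interferon-inducible ring that opens the core, read 11.65, 11.34 and 11.36 in HSC and 10.92, 10.99 and 11.39 in MEP. Its groups overlapped, and its difference of -0.35 (SE 0.17, adjusted p = 0.155) was the only negative one. Psme3, the nuclear activator, differed by 0.40 (SE 0.23, adjusted p = 0.234) and Psme4, which caps the core without ATP, by 0.40 (SE 0.15, adjusted p = 0.0627). Psme4 arrays read 10.81, 10.64 and 10.75 in HSC and 11.35, 10.97 and 11.06 in MEP, without overlap, and with replicate number as a block Psme4 was called (adjusted p = 0.0158). Outside the complex, Psmc3ip rose by 0.67 (adjusted p = 0.0450) and Psme3ip1 did not pass (0.25, adjusted p = 0.332).

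**Figure D3:**
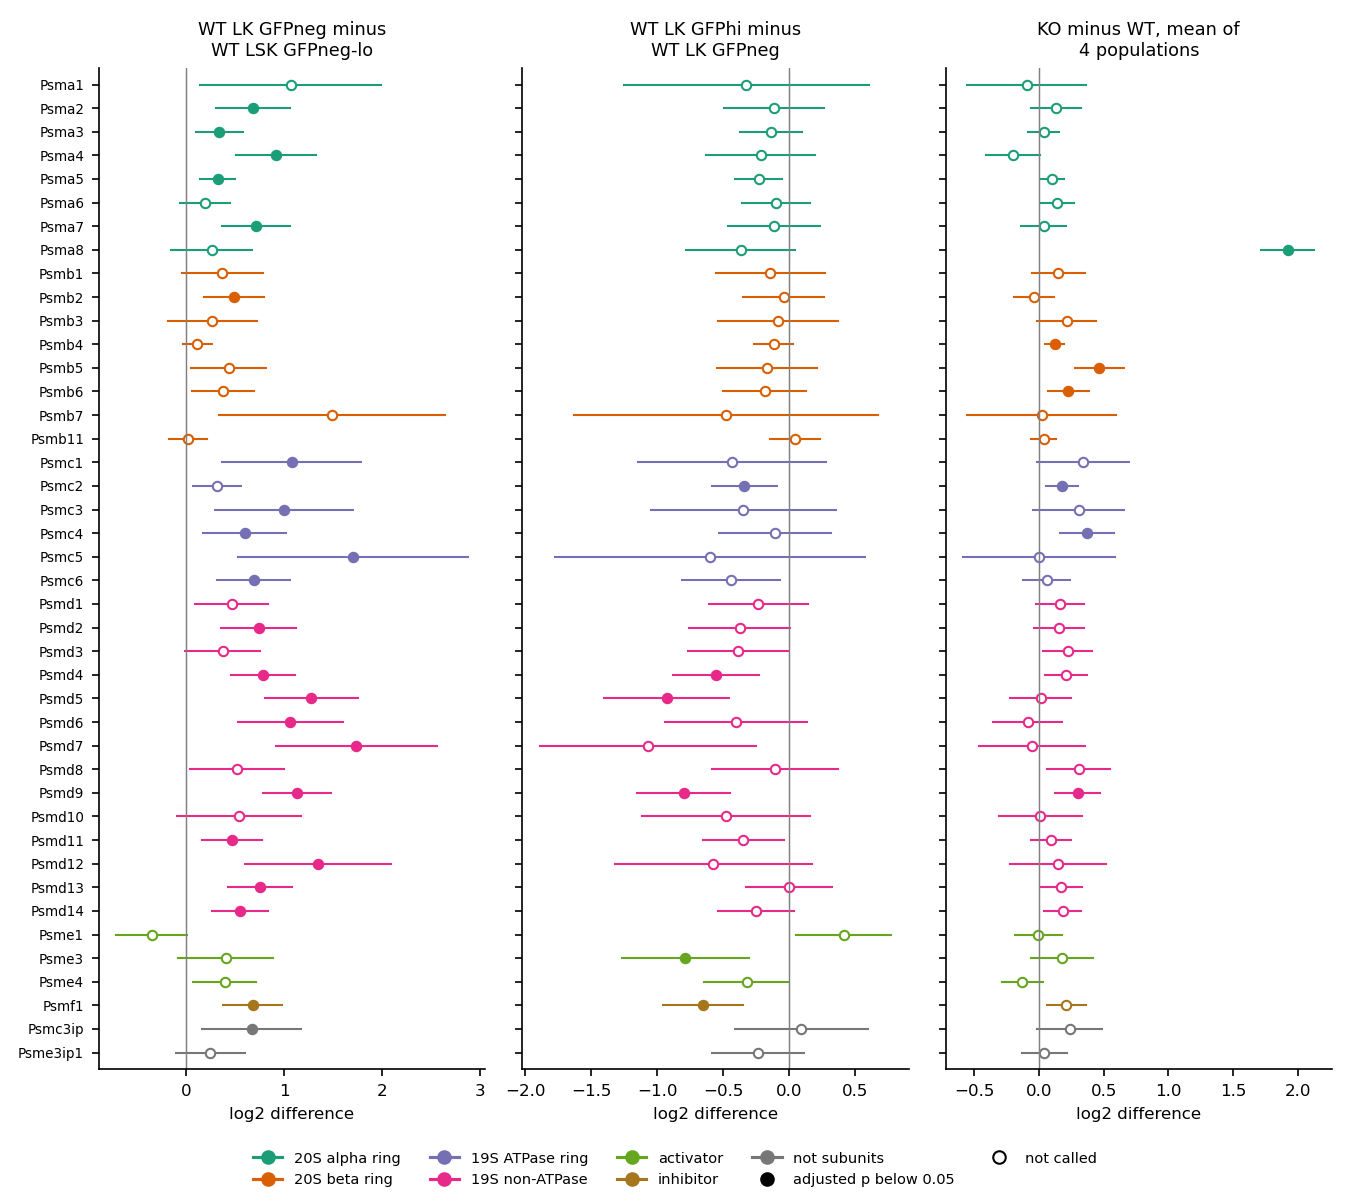
Difference in log2 signal for each of the 42 genes with its 95% confidence interval, for WT MEP minus WT HSC, WT GMP minus WT MEP and the mean of the 4 KO minus WT differences; filled points were called at adjusted p below 0.05. The 23 filled points of the first comparison all lie to the right of 0, the 6 of the second to the left, and Psma8 stands alone at 1.92 in the KO comparison.

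Other genes of the pathway were read from lists. Of 6 assembly factors, 3 rose in MEP and 0 fell, namely Psmg2, a chaperone of the alpha ring (1.08, adjusted p = 0.00538), Pomp, which matures the beta ring (0.87, adjusted p = 0.0313), and Akirin2, which helps to bring proteasomes into the nucleus (0.45, adjusted p = 0.0178). The Akirin2 call was lost without WT MEP replicate 2 (adjusted p = 0.0701) or 3 (0.0616) and without all arrays numbered 2 (0.146). Of 12 receptors, deubiquitinases and other partners, 3 rose, Ubqln4 (0.61) among them, and 1, Zfand5 (-0.68), fell. Ubqln4 was not called without all arrays numbered 2 (adjusted p = 0.165), nor Zfand5 without WT HSC replicate 1 (0.101) or WT MEP replicate 2 (0.0793). Of 11 regulators of proteasome gene transcription and their processing, 3 rose and 2 fell. Those that rose were Vcp (0.62), Nploc4 (0.48) and Ufd1 (0.80), the segregase and its cofactors, and those that fell were Bach1 (-0.64) and Maff (-0.65). With the mean of all probe sets of a gene, Bach1 was not called (-0.66, adjusted p = 0.0703). Nfe2l1 was not called (difference -0.34), nor was Nfe2l2 (1.08, adjusted p = 0.0739). Of 11 proliferation genes 6 rose, among them Birc5 (1.68) and Ccna2 (0.93), with centred medians per array of -0.51 to -0.15 in HSC and 0.08 to 0.42 in MEP. Their part in the proteasome result was not tested.

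The immunoproteasome moved against the constitutive genes. Psmb8, Psmb9 and Psmb10 replace the 3 catalytic beta subunits in immune cells, and all 3 fell in MEP. Psmb8 read 11.85, 11.69 and 11.68 in HSC and 10.53, 10.35 and 10.61 in MEP, a difference of -1.24 (adjusted p = 2.38e-05), and Psmb10 differed by -1.04 and Psmb9 by -0.94. Over the list of 10 immunoproteasome and peptide loading genes, 6 fell and 1, Pdia3, rose.

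The stretches of promoter that lie just before the gene start are shown for 7 genes from RefSeq (build GRCm38.p6), 35 of the 42 having an entry. They were picked to set promoters with an ETS motif near the start in genes that rose (Psmc1, Psmd6, Psmd11 and Psmd12) beside that of the gene with the smallest adjusted p (Psmd9), that of the catalytic subunit Psmb5 and that of Psme1, which did not rise. Each is 120 bases, 5′ to 3′ on the gene's strand and ending at the base before the start. Psmc1 is chr12:100110082-100110201 on the plus strand, Psmd6 chr14:14120946-14121065 on the minus strand, Psmd11 chr11:80428495-80428614 on the plus strand, Psmd12 chr11:107479408-107479527 on the plus strand, Psmd9 chr5:123228070-123228189 on the plus strand, Psmb5 chr14:54617996-54618115 on the minus strand and Psme1 chr14:55578374-55578493 on the plus strand. Capitals mark matches on either strand to the 5 motifs searched. The core of the antioxidant response element, which NFE2L1 binds together with small MAF proteins, was searched as TGANNNNGC. The motif of ETS factors was searched as CCGGAAG. The CCAAT box was searched by the letters of its name. The GC box was searched as GGGCGG. The palindrome of NRF1 (nuclear respiratory factor, a protein other than NFE2L1) was searched as a fixed sequence of bases. This palindrome has no match in the stretches shown.
Psmc1: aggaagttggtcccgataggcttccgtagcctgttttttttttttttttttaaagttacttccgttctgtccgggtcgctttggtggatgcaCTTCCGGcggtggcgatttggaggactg
Psmd6: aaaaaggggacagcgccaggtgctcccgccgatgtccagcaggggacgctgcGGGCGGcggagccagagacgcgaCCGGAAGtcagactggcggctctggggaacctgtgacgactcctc
Psmd11: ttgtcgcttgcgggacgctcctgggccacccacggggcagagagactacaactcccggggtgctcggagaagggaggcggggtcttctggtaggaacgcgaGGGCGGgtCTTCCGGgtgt
Psmd12: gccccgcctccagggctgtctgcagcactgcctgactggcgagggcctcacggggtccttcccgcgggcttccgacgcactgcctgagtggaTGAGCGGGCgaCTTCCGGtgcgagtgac
Psmd9: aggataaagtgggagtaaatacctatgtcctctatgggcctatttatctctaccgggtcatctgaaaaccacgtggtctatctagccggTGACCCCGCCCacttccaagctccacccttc
Psmb5: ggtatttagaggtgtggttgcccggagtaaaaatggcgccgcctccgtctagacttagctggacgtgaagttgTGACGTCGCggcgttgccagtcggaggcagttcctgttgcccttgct
Psme1: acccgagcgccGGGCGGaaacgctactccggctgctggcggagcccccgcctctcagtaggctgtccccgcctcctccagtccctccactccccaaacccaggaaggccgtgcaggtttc

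Psmc1, Psmd11 and Psmd12 hold the ETS motif on the minus strand, and Psmd6 holds it on the plus strand. Psmd12 and Psmb5 also hold the antioxidant response core, and in Psmd9 that core overlaps a GC box. Over windows of 300 bases (250 before and 50 after the start), 12 of 35 proteasome promoters (34.3%) held the ETS motif, beside 1992 of 14452 promoters of tested genes (13.8%). Among the 20 genes that rose in WT MEP and have an entry, 9 (45%) held it, Psmc3ip among them. Psmc2, Psme3 and Psme4, which were not called there, held it too. For the antioxidant response core the shares of proteasome and tested promoters were 51.4% and 42.6%, and for CCAAT 40% and 38.2%. For the GC box they were 57.1% and 54%, and for NRF1 2.86% and 1.58%. Among the same 20 genes, 45% held the antioxidant response core, 35% CCAAT, 65% the GC box and 5% the NRF1 palindrome. Whether any motif goes with the rise was not tested. A match in these windows is a description of sequence and does not show that a factor is bound.

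Between the WT stem cell and lymphoid-primed fractions the proteasome genes hardly differed: 1 of 42 was lower in LMPP and 0 were higher (1 and 2 at an unadjusted p below 0.05), with a background of 4.52% called in either direction and 2.89% lower. The median difference was 0.02, beside 0.04 over all genes. The gene that fell was Psma8, which read 7.87, 7.54 and 7.65 in HSC and 7.12, 7.14 and 6.64 in LMPP, a difference of -0.72 (SE 0.20, adjusted p = 0.0405). Its arrays did not overlap, but the call was lost without any 1 of the 6 arrays, with adjusted p up to 0.174 (without WT HSC replicate 1). With replicate number as a block 2 genes were called, Psmc3ip being the other (0.52, adjusted p = 0.0304). Of the pathway lists, Ubqln2, a shuttle for tagged proteins, fell (-0.77, adjusted p = 0.0307), and so did the transcriptional repressor gene Bach1 (-0.74, adjusted p = 0.00386). The Ubqln2 arrays overlapped, and its call was lost without WT HSC replicate 1 or 3 or WT LMPP replicate 1 or 2 (adjusted p of 0.0590 to 0.229). Neither gene was called with the mean of all probe sets of a gene (adjusted p = 0.406 and 0.257).

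From LMPP to GMP, the fractions with high GFP, 2 of 42 genes rose in WT cells and 0 fell (11 and 0 at an unadjusted p below 0.05), against a background of 2.02% higher and 4.55% in either direction. These were Psmd13 (0.64, SE 0.16, adjusted p = 0.0202) and Psma4 (0.73, SE 0.20, adjusted p = 0.0374). Psmd13 read 9.41, 9.49 and 9.87 in LMPP and 10.09, 10.11 and 10.50 in GMP, and Psma4 read 10.45, 10.45 and 10.89 against 11.46, 11.03 and 11.49, with no overlap in either. The median difference was 0.26, beside -0.03 over all genes, and 37 of 42 signs were positive. The count depended on single arrays: it was 0 without WT LMPP replicate 1, WT LMPP replicate 2 or WT GMP replicate 3, 1 without WT GMP replicate 1, and 8 without WT GMP replicate 2. It was 10 without all arrays numbered 2 and 12 with replicate number as a block, all of them higher in GMP. Of the pathway lists, Sem1, a small cap subunit whose symbol lies outside the name rule, rose (0.43, adjusted p = 0.00743), and so did Nploc4 (0.58, adjusted p = 0.0381). Sem1 was not called without WT GMP replicate 1 (adjusted p = 0.0736), nor Nploc4 without any of WT LMPP replicates 1 and 3 and WT GMP replicates 1 and 3 (0.0750 to 0.231).

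Psmb7 shows the effect of those arrays. It read 10.07, 8.82 and 10.48 in LMPP and 11.39, 9.63 and 11.38 in GMP, the array numbered 2 being lowest by more than 1 unit in each group. The difference was 1.01 with adjusted p = 0.379. With the block the adjusted p was 0.0314, and without all arrays numbered 2 the difference was 1.11 (adjusted p = 0.0300). Psmc5 behaved alike, at 9.14, 8.08 and 9.84 against 10.50, 8.75 and 10.95.

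Between the myeloid fractions of WT cells, 6 of 42 genes were lower in GMP than in MEP and 0 were higher (12 and 1 at an unadjusted p below 0.05), with a background of 8.6% lower and 18.6% in either direction. The share of 14.3% lower compares with that background. The median difference was -0.29, beside -0.00 over all genes, and 39 of 42 signs were negative. The genes were Psmd9 (-0.80, SE 0.17, adjusted p = 0.00129), Psmf1 (-0.65, adjusted p = 0.00241), Psmd5 (-0.93, adjusted p = 0.00487), Psmd4 (-0.55, adjusted p = 0.0141), Psme3 (-0.79, adjusted p = 0.0187) and Psmc2 (-0.34, adjusted p = 0.0468). They include both assembly chaperones of the cap that had risen in MEP, the ubiquitin receptor and both the inhibitor and a nuclear activator of the core.

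In WT GMP, Psmd9 read 8.34, 8.47 and 8.69 and Psmd5 9.21, 8.80 and 9.27, all below the MEP arrays given above. Psmf1 read 8.62, 8.21 and 8.55, and Psmd4 10.65, 10.62 and 10.71, again below every MEP array. Psme3 read 9.72, 9.97 and 10.52 in MEP and 8.81, 9.55 and 9.48 in GMP. Its call was lost without WT MEP replicate 3 (adjusted p = 0.144) or WT GMP replicate 1 (adjusted p = 0.133). Psmd4 was not called without WT MEP replicate 3 (adjusted p = 0.0542) or with the mean of all probe sets of a gene (-0.37, adjusted p = 0.0571). Psmc2, at 12.51, 12.70 and 12.68 in GMP, lost its call without any 1 of the 6 arrays. With replicate number as a block 12 genes were called, 11 lower and Psme1 higher (0.41, adjusted p = 0.0443). Without all arrays numbered 2, 4 were lower, Psmf1 no longer among them (-0.52, adjusted p = 0.0856). The median difference was -0.08 without WT GMP replicate 2.

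Psmb8, Psmb9 and Psmb10 were higher in GMP than in MEP, by 1.498, 0.96 and 0.88 (adjusted p = 2.20e-06, 7.58e-04 and 9.76e-04). Of the 6 assembly factors 1 fell, Psmg2 (-1.01, adjusted p = 0.0114), a call lost without WT MEP replicate 3 (adjusted p = 0.0583) or WT GMP replicate 2 (adjusted p = 0.0941). Over the 10 immunoproteasome and peptide loading genes 4 rose, the fourth being Calr (0.78, adjusted p = 1.20e-05). Sem1 rose (0.39, adjusted p = 0.00339), the thioredoxin-like partner gene Txnl1 fell (-0.58, adjusted p = 0.0138), and Uba6, a ubiquitin-activating enzyme, fell (-0.41, adjusted p = 0.0135). Txnl1 was not called without WT MEP replicate 2 (adjusted p = 0.0789) or WT GMP replicate 1 (0.0647), nor Uba6 without WT GMP replicate 1 (0.0526) or 2 (0.0576). The 11 proliferation genes had differences of -0.39 to 0.13, none of them called. The MEP arrays enter this comparison and the one with HSC, so the 2 results are not independent.

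In Ikaros-deficient cells 1 gene of the 42 stood out in every population. Psma8 encodes the alpha subunit that replaces its constitutive counterpart Psma7 in the proteasome of male germ cells. In HSC it read 7.87, 7.54 and 7.65 in WT and 9.41, 9.45 and 9.64 in KO. In LMPP it read 7.12, 7.14 and 6.64 in WT and 8.94, 9.38 and 8.98 in KO. In each of these populations the lowest KO array exceeded the highest WT array by more than 1.5 units.

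In MEP Psma8 read 7.77, 8.13 and 7.95 in WT and 10.11, 9.48 and 10.18 in KO, and in GMP it read 7.72, 7.46 and 7.56 in WT and 9.32, 8.99 and 9.72 in KO. No KO array of any population overlapped with a WT array of any population. The differences were 1.81 in HSC, 2.13 in LMPP, 1.98 in MEP and 1.77 in GMP (SE 0.20 each), which are 3.51-, 4.38-, 3.93- and 3.404-fold, with adjusted p = 9.89e-06, 4.32e-07, 2.22e-06 and 5.65e-06. Their mean was 1.92 (SE 0.10, adjusted p = 3.43e-11). By size, Psma8 ranked 32nd, 60th, 27th and 97th among the rises over all 18193 genes. The call held in every alternative run, including the one without all arrays numbered 2 (1.77, 2.08, 2.29 and 1.88).

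The KO effect on Psma8 was not shown to differ between populations. The difference of effects was 0.32 for LMPP against HSC (95% confidence interval -0.26 to 0.90), 0.16 for MEP against HSC (-0.42 to 0.74), -0.37 for GMP against LMPP (-0.95 to 0.22) and -0.21 for GMP against MEP (-0.79 to 0.37). Psma8 has a single probe set on the array, so its rise has no check on a further one. The gene lies on chromosome 18. Of 8 tested genes that start or end within 1 Mb of it, 0 were called in HSC, LMPP or MEP, and 1, Gm2629, was lower in GMP (-0.72, adjusted p = 0.0412). Several of them were dim, with a mean of 3.90 for Chst9, 5.25 for 8430422H06Rik and 5.85 for 4933424G05Rik. Ss18 and Taf4b had wide SEs of 0.44 and 0.35. A change in these neighbours could therefore have been missed. Psma7, which encodes the constitutive counterpart, was not called in any KO comparison.

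**Figure D4:**
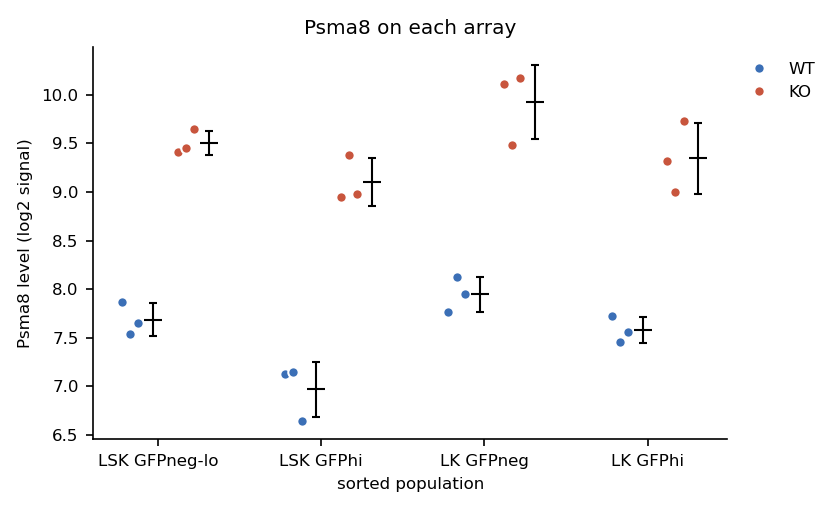
Log2 signal of Psma8 on each of the 24 arrays by population and genotype, with group means and SD (n = 3). Every KO array, from 8.94 to 10.18, lies above every WT array, from 6.64 to 8.13.

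Apart from Psma8, the proteasome genes gave few calls in KO cells. In HSC 1 of 42 was called, Psma8 (background 2.14%, or 1.26% higher), although 39 of 42 differences were positive, with a median of 0.25 beside 0.03 over all genes. Granulocyte and monocyte progenitor genes moved on the same arrays: 3 of 6 were called higher in KO HSC, and their centred median was -1.15 to -0.66 in WT and -0.35 to 0.40 in KO. All 11 proliferation genes had positive differences there and 0 were called, with centred medians of -0.51 to -0.15 in WT and -0.24 to 0.10 in KO. All 5 erythroid and megakaryocyte genes were positive too with 0 called, at 0.26 to 1.28 in WT and 0.99 to 1.39 in KO. Plasma cell genes had centred medians of -0.17 to 0.31 in WT and -0.63 to -0.56 in KO HSC. The part of these lists in the proteasome values was not tested. Among the 42, at an unadjusted p below 0.05 there were 7, all higher, and without all arrays numbered 2 Psmc3 was called too (0.91, adjusted p = 0.0324). In LMPP 1 was called (background 4.6%, or 2.91% higher), with 35 positive signs and a median of 0.17. Marker lists differed there too. Early lymphoid genes had centred medians of 1.92 to 2.03 in WT and 0.52 to 0.88 in KO LMPP. Granulocyte and monocyte progenitor genes had 0.83 to 1.06 in WT and 1.59 to 1.63 in KO. Plasma cell genes had 0.95 to 2.10 in WT and -0.93 to -0.27 in KO. Their part in the LMPP values was not tested. In MEP 1 was called (background 2.65%, or 1.2% higher), with 28 positive signs and a median of 0.07. Psmd4 was next by adjusted p there and was not called (0.27, adjusted p = 0.640). In GMP 2 were called (background 9.56%, of which 5.78% higher and 3.79% lower), Psma8 higher and Psma4 lower, with 27 positive signs and a median of 0.06. The GMP count changed with the treatment of replicates: with replicate number as a block 9 were called, 7 higher and 2 lower, and without all arrays numbered 2 it was 4, with Psma8 higher and Psma1, Psma4 and Psmb7 lower. The share of all genes called in those fits is not given, so a general gain in calls cannot be told from one of these genes.

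Psma4 in GMP read 11.46, 11.03 and 11.49 in WT and 10.78, 10.73 and 10.40 in KO. The arrays did not overlap, and the difference was -0.68 (SE 0.20, adjusted p = 0.0323). The call was lost without WT GMP replicate 1 (adjusted p = 0.120), WT GMP replicate 3 (0.128), KO GMP replicate 2 (0.0534) or KO GMP replicate 3 (0.149). In the other populations Psma4 overlapped between genotypes. Psmb7 in GMP read 11.39, 9.63 and 11.38 in WT and 10.65, 9.16 and 9.92 in KO, a difference of -0.89 (SE 0.55, adjusted p = 0.328). It was called with the block (adjusted p = 0.0410) and without all arrays numbered 2 (-1.09, adjusted p = 0.0276). KO GMP arrays also had higher mature neutrophil genes: 3 of 3 were called higher, with a mean log2 level of 6.81 to 7.64 against 5.49 to 5.97 in WT GMP. Erythroid and megakaryocyte genes were called higher there in 3 of 5 and early lymphoid genes lower in 6 of 6. Plasma cell genes had centred medians of -0.003 to 1.06 in WT and -1.01 to -0.65 in KO GMP. Of 11 proliferation genes 10 were lower in KO GMP, and 1 was called, Top2a. Top2a read 12.87, 12.52 and 12.80 in WT and 12.20, 11.83 and 12.21 in KO, a difference of -0.65 (adjusted p = 0.0114), a call lost without WT GMP replicate 1 (adjusted p = 0.0620) or 3 (0.0504) or KO GMP replicate 2 (0.0668). Mki67 (-0.64, adjusted p = 0.127) and Tyms (-0.79, adjusted p = 0.0875) did not overlap between genotypes and were not called. The centred median of the list was -0.06 to 0.32 in WT and -0.48 to 0.03 in KO. For all these lists, their part in the values of Psma4 and Psmb7 was not tested.

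Of the catalytic subunits, Psmb5 had a positive difference in all 4 populations. It read 11.10, 11.13 and 10.99 in WT HSC and 11.97, 11.49 and 11.58 in KO HSC, and 11.07, 10.90 and 11.42 in WT LMPP and 11.71, 11.68 and 11.44 in KO LMPP, with no overlap in either. In MEP it read 11.32, 11.48 and 11.73 against 12.00, 11.56 and 11.90, and in GMP 11.24, 10.996 and 11.78 against 11.92, 11.66 and 11.83, with overlap in both. The differences were 0.61, 0.48, 0.31 and 0.46 (SE 0.18), and none passed on its own (adjusted p = 0.110, 0.197, 0.643 and 0.117). With the block, Psmb5 was called in HSC (adjusted p = 0.0383) and in GMP (adjusted p = 0.0493). Averaged over the 4 populations Psmb5 rose by 0.47 (SE 0.09, adjusted p = 0.00111).

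Psmb6 differed by 0.26, 0.24, 0.02 and 0.39 (SE 0.15) and rose by 0.23 on average (SE 0.08, adjusted p = 0.0449). Its KO and WT arrays overlapped in HSC, at 11.55, 11.36 and 11.51 against 11.16, 11.39 and 11.09. Psmb7 differed by 0.64, 0.27, 0.07 and -0.89 (SE 0.55). Its average of 0.02 was not called (SE 0.27, 95% confidence interval -0.55 to 0.60). So the average effect passed the test for the chymotrypsin-like and caspase-like subunits, and not for the trypsin-like one. The interval of Psmb7 also holds the averages of Psmb5 and Psmb6, so the subunits were not shown to differ.

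For the mean of the 4 KO effects, 7 of 42 genes rose and 0 fell (15 and 0 at an unadjusted p below 0.05), a share of 16.7% beside a background of 9.76% higher, 6.36% lower and 16.1% in either direction. The median was 0.15, beside 0.04 over all genes. Besides Psma8, Psmb5 and Psmb6 these were the ATPases Psmc4 (0.37, SE 0.10, adjusted p = 0.0140) and Psmc2 (0.18, adjusted p = 0.0419), the chaperone Psmd9 (0.30, adjusted p = 0.0177) and the beta subunit Psmb4 (0.12, SE 0.04, adjusted p = 0.0206). The count was 11 without KO MEP replicate 2 and 5 to 9 without any other single array. Without all arrays numbered 2 it was 8, with Psmc2 and Psmd9 not among them. Psmc4 was not called with the mean of all probe sets of a gene (0.33, adjusted p = 0.0692). In the same mean effect, early lymphoid genes were called lower in 6 of 6, and granulocyte and monocyte progenitor genes higher in 4 of 6, erythroid and megakaryocyte genes in 3 of 5, mature neutrophil genes in 3 of 3 and proliferation genes in 1 of 11. Of the plasma cell genes, Jchain (-1.70) and Sdc1 (-1.29) were called lower and Xbp1 was not called. Stem cell genes went both ways. Procr (1.31) and Hoxb5 (0.85) were called higher and Meis1 (-0.58) lower, while Mecom and Hlf were not called. The part of these lists in the proteasome values was not tested. The share of the 42 called in either direction is near the background, and the rises other than that of Psma8 were below 0.5.

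Psmc4 is an example of the size of these effects. It read 10.27, 10.23 and 10.19 in WT HSC and 10.31, 10.65 and 10.78 in KO HSC, and 10.81, 10.32 and 11.03 in WT GMP and 11.13, 11.003 and 11.50 in KO GMP. The genotypes were apart by little in HSC and overlapped in GMP. Psmd9 read 7.92, 8.39 and 8.21 against 8.56, 8.47 and 8.70 in HSC, without overlap, and 9.13, 9.31 and 9.47 against 9.51, 9.24 and 9.61 in MEP, with overlap. Its KO means were 8.58 ± 0.11 in HSC and 9.46 ± 0.19 in MEP (SD, n = 3), a step that was not tested.

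Whether the KO effect differed between populations was tested for each gene, and no proteasome gene was called. Of 42, 0 were called for LMPP against HSC (background 0.313%), MEP against HSC (0.808%), GMP against LMPP (0.143%) and GMP against MEP (2.5%) in limma, and 0, 0, 2 and 0 had an unadjusted p below 0.05. For MEP against HSC 35 of 42 differences of effects were negative, with a median of -0.24 beside 0.01 over all genes. That median was -0.07 without KO MEP replicate 2. For LMPP against HSC 29 were negative, with a median of -0.10 beside -0.02, and for GMP against LMPP 27, with -0.11 beside 0.06. For GMP against MEP 21 were negative, with a median of -0.00 beside 0.03. These comparisons share groups and are not independent.

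The genes with the smallest adjusted p in these tests had wide intervals. For LMPP against HSC they were Psmb11 (-0.26, 95% confidence interval -0.53 to 0.01) and Psmd3 (0.33, -0.21 to 0.86). For MEP against HSC they were Psmd14 (-0.35, -0.75 to 0.06) and Psma2 (-0.40, -0.94 to 0.13). For GMP against LMPP they were Psmb11 (0.31, 0.04 to 0.58, adjusted p = 0.554) and Psmd13 (-0.49, -0.95 to -0.03, adjusted p = 0.591), the 2 with an unadjusted p below 0.05. For GMP against MEP they were Psma4 (-0.57, -1.15 to 0.01, adjusted p = 0.489) and Psme4 (-0.39, -0.84 to 0.07, adjusted p = 0.621). The largest difference of effects was that of Psmb7 for GMP against LMPP, -1.16 (SE 0.78, 95% confidence interval -2.78 to 0.47), an interval that also holds differences of more than 2 units.

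Related genes were also called in KO cells. In MEP, Psmb8 read 10.53, 10.35 and 10.61 in WT and 9.55, 10.09 and 9.62 in KO, a difference of -0.74 (adjusted p = 0.0265) without overlap. This call was lost without all arrays numbered 2 (-0.99, adjusted p = 0.0639), without WT MEP replicate 1 or 3 and without KO MEP replicate 1 or 3 (adjusted p of 0.1001 to 0.1505). Of the 12 receptors, deubiquitinases and other partners, 1 was called in LMPP and 3 in GMP. In LMPP Sem1 rose by 0.42 (adjusted p = 0.00708). Its call was lost without KO LMPP replicate 3 (adjusted p = 0.0591), without all arrays numbered 2 (0.104) and with the fit of the compared groups only (0.0891). In GMP Sem1 rose by 0.31 (adjusted p = 0.0358), while Ubqln2 fell (-0.71, adjusted p = 0.0293) and so did Zfand5 (-0.70, adjusted p = 0.0348), a regulator that binds the proteasome. Ubqln2 and Zfand5 did not overlap between genotypes. Without WT GMP replicate 1 or 3 or KO GMP replicate 1 or 3 Ubqln2 was not called (adjusted p of 0.0549 to 0.115). Zfand5 was not called without WT GMP replicate 1 or 3 or KO GMP replicate 2 or 3 (adjusted p of 0.0775 to 0.131), and neither was called with the mean of all probe sets of a gene (-0.07 and -0.17).

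In the mean of the 4 effects 3 of the 10 immunoproteasome and peptide loading genes fell and 1 rose. Tap1 (-0.38), Tap2 (-0.49) and Psmb8 (-0.35) fell, the Tap genes encoding the peptide transporter, and the chaperone gene Calr rose (0.19). Tap1 was not called with the mean of all probe sets of a gene (-0.09, adjusted p = 0.199). Of the 12 partners 3 rose and 1 fell. Sem1 rose by 0.27 (adjusted p = 2.55e-04), the deubiquitinase gene Usp14 by 0.20 (adjusted p = 0.00389) and the ubiquitin ligase gene Ube3c by 0.18 (adjusted p = 0.0388), and Zfand5 fell (-0.32, adjusted p = 0.0370). The Usp14 call was lost without probe sets ending in _x_at or _s_at (0.07, adjusted p = 0.857), with the mean of all its probe sets (adjusted p = 0.999) and without all arrays numbered 2 (0.0733). Bach1 fell (-0.26, adjusted p = 0.0212), 1 of the 11 transcription regulators, and Ccna2 rose (0.32, adjusted p = 0.0128), 1 of the 11 proliferation genes. With the mean of all probe sets of a gene neither was called (adjusted p = 0.301 and 0.104).

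How far a gene's result depends on its probe set was read from the 23 genes with at least 2 probe sets of their own, 19 having 1. For WT MEP against HSC the next brightest probe set had the same sign in 21 of 23 genes, with a median of 0.52 beside 0.67 on the brightest. Single genes differed widely, the next probe set giving the larger size in 12 of 23. Psmd6 gave 1.06 on the brightest and 2.45 on the next, Psme3 0.40 and 1.67, and Psma6 0.19 and 1.02. Psmb3 gave 0.27 and 1.05, and Psmc2, not called on the brightest, 0.31 and 0.98. The reverse held for Psmd9, at 1.13 and 0.13, Psmd7, at 1.74 and 0.48, Psmd4, at 0.78 and 0.05, Psma1, at 1.07 and 0.02, and Psmc1, at 1.08 and -0.06. Psmd11 had opposite signs, at 0.46 and -0.41. For the mean KO effect the signs matched in 17 of 23 genes. The size given for 1 gene is therefore that of its probe set, and which transcripts each probe set reads was not analysed here.

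**Figure D5:**
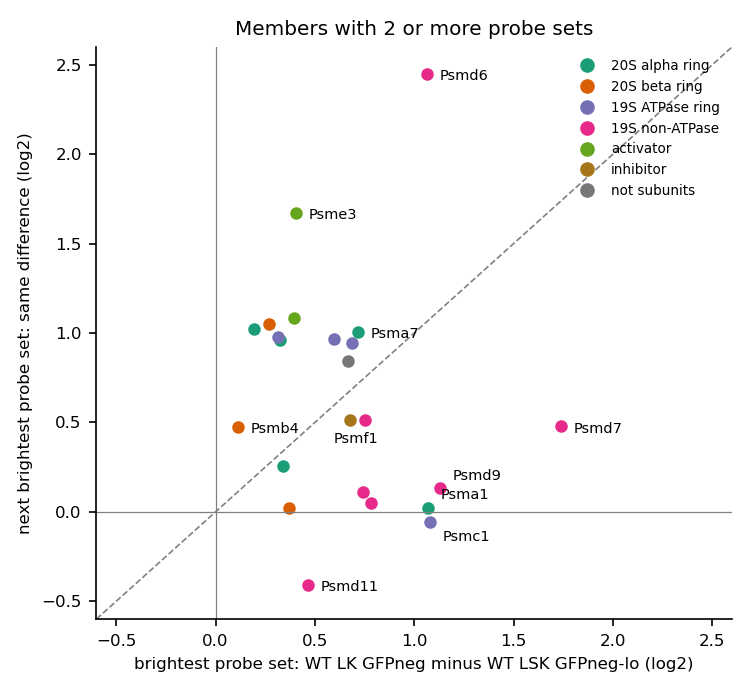
Difference in log2 signal between WT MEP and WT HSC on the brightest probe set (horizontal) and the next brightest (vertical) for the 23 genes with at least 2; the dashed line marks equal values and colours mark roles. Of the points, 21 lie above 0 on both axes, with Psmc1 and Psmd11 below 0 on the vertical axis.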

How the data were processed

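RNA of 4 sorted progenitor populations was measured in WT and KO mice on 24 one-colour arrays, 3 per group. The values deposited by the authors are log2 signals made with RMA, per the submitters' processing notes, which name no version. In RMA the quantile normalization is fitted over all arrays, so differences are relative to the other genes of an array. Values of dim probe sets are compressed. The deposited values span 3.33 to 14.5, and having only 3 arrays a group bounds how precise any difference can be.

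Of 45101 probe sets, 34945 had a single gene symbol and 932 had several, which were not used. The brightest probe set of each gene gave 18193 genes, of which 18031 matched the reference table (GRCm38.p6) by Entrez ID, all 42 genes described here among them. Tests used lmFit and eBayes of limma 3.58.1 (R 4.3.3). A single model held the 8 group means of all 24 arrays and had 16 residual degrees of freedom, to which eBayes added 3.27. P-values are two-sided and adjusted by Benjamini and Hochberg within each of 13 comparisons. An exact permutation test of 3 against 3 arrays cannot go below 0.1. The steps were tested on simulated data.

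The genes, lists and tests were chosen with earlier results of these data known. Named with values by a fixed rule were the catalytic, tissue-restricted and activator subunits and, in each comparison, up to 6 called genes each way with the smallest adjusted p (3 in the mean effect and in interactions), or the 2 smallest where fewer than 2 were called. It added up to 2 called genes of each pathway list and comparison and, at least once, Psmb8, Psmb9, Psmb10, Nfe2l1, Nfe2l2 and Pomp. Further genes were named for their role or as examples after their values were seen. Some genes of the pathway lists, Paaf1, Adrm1, Ddi2 and Ccnb1 among them, were not analysed here.

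Same-numbered replicates were taken to pair a comparison where every pair of residuals correlated above 0.1 over all genes. This held for KO against WT in HSC (lowest r = 0.276), MEP (0.359) and GMP (0.175), for all 4 WT comparisons (0.171 to 0.582) and for the interaction of GMP against MEP (0.169). LMPP (0.0238) failed this, as did the other 3 interactions and the mean effect (-0.0891). Alternatives tried were fitting only the compared groups, blocking on replicate number, dropping the dimmest 40% of probe sets, probe sets ending in _x_at or _s_at left out, the mean of all probe sets of a gene, array weights, eBayes with trend and robust settings, centring on the median, the 2 genes that encode no subunit left out and each array left out in turn. Figures were drawn with matplotlib 3.10.9.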

Additional observations from a re-analysis of the deposited data

How the results depend on the processing

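Of 284 alternative counts and medians that left out no single array, 263 stayed near the main value, 21 moved and 0 reversed. Near meant within 1.5 times the count, or 1 SD of the member median between arrays of a group (0.159). Direction was checked only for counts within that range, and not for medians. Those without the genes that encode no subunit came from the main fit itself. The cause of the moves was not tested. With replicate number as a block, the proteasome genes called were 2 for KO against WT in HSC, 9 in GMP and 15 for the mean effect, and 2 for WT LMPP against HSC, 12 for GMP against LMPP and 12 for GMP against MEP. For the mean effect the numbers do not pair the samples. Counts in this paragraph are given without the share of all genes called in the same fit. Array weights gave 3 for KO against WT in HSC, 2 in MEP, 14 for the mean effect and 11 for WT GMP against LMPP. Without replicate 2 of every group there were 2 for KO against WT in HSC, 4 in GMP and 10 for WT GMP against LMPP. The fit of the compared groups only gave 1 for KO against WT in GMP, 0 for WT LMPP against HSC and 0 for WT GMP against LMPP. The mean of all probe sets of a gene gave 4 for KO against WT in GMP and 1 for WT GMP against LMPP. The median difference of KO effects moved to -0.287 for LMPP against HSC without replicate 2 of every group, and for GMP against MEP to -0.187 with array weights and -0.206 without replicate 2 of every group.

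With 1 array left out in turn, the count ranged from 1 to 2 for KO against WT in GMP, from 5 to 11 for the mean effect, from 0 to 0 for WT LMPP against HSC, from 15 to 21 for MEP against HSC and from 0 to 8 for GMP against LMPP. The median difference ranged from -0.135 to 0.145 for KO against WT in GMP, from -0.362 to -0.0839 for WT GMP against MEP and from -0.329 to -0.0665 for the difference of KO effects in MEP and HSC. A group left with 2 arrays borrows its spread from the other groups. Of 1189 refits of 66 named genes and comparisons, 1082 kept their side of the threshold, 103 lost the call, 4 gained it and 0 reversed. The fit of the compared groups only also ended the KO GMP calls of Psma4 (adjusted p = 0.0995), Zfand5 (0.0698) and Top2a (0.0880), that of Psmb8 in KO MEP (0.112), those of Psma8 (0.0730) and Ubqln2 (0.331) in WT LMPP against HSC, those of Psmd13 (0.167), Psma4 (0.146), Sem1 (0.164) and Nploc4 (0.164) in GMP against LMPP and those of Psme3 (0.0990) and Sem1 (0.0818) in GMP against MEP. Without replicate 2 of every group, calls also ended for Psmd13 (0.1003) and Nploc4 (0.0759) in GMP against LMPP and for Psmc2 (0.258), Txnl1 (0.176) and Uba6 (0.0734) in GMP against MEP. The mean of all probe sets ended those of Psmd13 in GMP against LMPP (0.341) and Uba6 in GMP against MEP (0.348). Leaving out probe sets ending in _x_at or _s_at ended that of Psmc2 in GMP against MEP (0.216), median centring that of Zfand5 in KO GMP (0.0522) and trend and robust settings that of Nploc4 in GMP against LMPP (0.0532). Calls gained with the replicate block and not given above include Psmb6 (adjusted p = 0.0453), Psmc4 (0.0233) and Psmd9 (0.0382) in KO GMP. Psma8 gained a call in WT GMP against LMPP (0.0476). With 3 arrays per group, the SE of a single gene's KO difference in HSC ranged from 0.0703 to 0.561 over the 42.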
